A study of Homo sapiens with 4 samples.

Results

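The SR protein and hnRNP genes were followed across 4 mRNA-seq libraries of HepG2 cells, a human hepatocellular carcinoma line. They were chosen by name, as the protein-coding genes whose symbol starts with SRSF and a digit or with HNRNP, or is TRA2A or TRA2B. The rule found 40 of the 58302 genes in the files, of which 14 are SRSF or TRA2 genes and 26 are HNRNP genes. The wild-type cells received melatonin at 1 mM, or DMSO as the control, for 24 h or 48 h, in MEM with 10% serum. Each of the 4 conditions has 1 library (DMSO 24 h and DMSO 48 h, Melatonin 24 h and Melatonin 48 h), so the spread between cultures is unknown, and no p-value for melatonin or for time was computed.

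SR proteins carry RNA recognition motifs and a tail rich in arginine and serine. They bind exonic enhancers and help U1 and U2AF to recognise splice sites, and several of them also act in mRNA export, translation and genome stability. The hnRNP proteins bind nascent transcripts through RRM, KH or other domains and often silence exons, as HNRNPA1 does against SRSF1 in the classical case of competing 5′ splice sites. Many genes of both families control their own output through exons that carry a premature stop codon, so-called poison exons. When such an exon is included, the transcript is removed by nonsense-mediated decay (NMD). Several members, with SRSF1 and HNRNPA1 among them, are often overexpressed in liver and other cancers, and the question that these libraries address is how melatonin alters gene expression and splicing in liver cancer cells.

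The reads per gene in the 4 libraries were totals over all transcripts of a gene. Coding and NMD transcripts therefore cannot be told apart here, which matters most for the SR genes with poison exons. For 5 of them a poison exon annotated in GENCODE 44 (hg38) is printed here from its first base to its stop codon, which is in capitals. They lie at chr6:36599821-36600276 on the plus strand in SRSF3 (456 bases), chr2:38748898-38749346 on the minus strand in SRSF7 (449 bases), chr1:29165890-29166064 on the minus strand in SRSF4 (175 bases), chr20:43459153-43459420 on the plus strand in SRSF6 (268 bases) and chr3:185931577-185931852 on the minus strand in TRA2B (276 bases).
SRSF3: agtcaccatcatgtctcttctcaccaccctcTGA
SRSF7: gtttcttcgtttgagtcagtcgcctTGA
SRSF4: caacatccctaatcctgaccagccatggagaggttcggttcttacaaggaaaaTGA
SRSF6: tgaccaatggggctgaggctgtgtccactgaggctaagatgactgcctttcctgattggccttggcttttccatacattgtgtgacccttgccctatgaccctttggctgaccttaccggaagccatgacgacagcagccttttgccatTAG
TRA2B: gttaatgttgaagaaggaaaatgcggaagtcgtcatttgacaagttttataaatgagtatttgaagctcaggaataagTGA
The stop codon is TGA in SRSF3, SRSF7, SRSF4 and TRA2B and TAG in SRSF6. Further exons of this kind are annotated in SRSF3 (98 bases) and in SRSF7 (69 and 276 bases) and are not printed. Others not printed are annotated in SRSF9 (90 bases), SRSF11 (62, 109 and 117 bases), TRA2A (301 bases) and SRSF12 (344 and 347 bases). No value in these data tells how often any of these exons was included.

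Promoters are shown for 3 genes that lead the comparisons, SRSF5, which had the largest fold change of all members, and HNRNPM and HNRNPA2B1, which were the lowest with melatonin relative to DMSO at 24 h. Each run holds 300 bases of RefSeq (GRCh38.p14), from 250 bases before to 50 bases after an annotated start, written in the direction of transcription. They lie at chr14:69766892-69767191 on the plus strand (SRSF5), chr19:8444725-8445024 on the plus strand (HNRNPM) and chr7:26200697-26200996 on the minus strand (HNRNPA2B1). Capitals mark the letters that matched a searched motif, which are the ETS motif CCGGAAGT in SRSF5, the E-box CACGTG in HNRNPM and the CCAAT box, read on the opposite strand as ATTGG, in HNRNPA2B1.
SRSF5: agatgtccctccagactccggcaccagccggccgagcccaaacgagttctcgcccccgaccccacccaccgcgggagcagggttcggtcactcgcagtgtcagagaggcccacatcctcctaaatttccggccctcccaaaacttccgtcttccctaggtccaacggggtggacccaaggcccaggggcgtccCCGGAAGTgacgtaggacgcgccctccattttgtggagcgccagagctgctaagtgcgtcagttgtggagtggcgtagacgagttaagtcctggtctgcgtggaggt
HNRNPM: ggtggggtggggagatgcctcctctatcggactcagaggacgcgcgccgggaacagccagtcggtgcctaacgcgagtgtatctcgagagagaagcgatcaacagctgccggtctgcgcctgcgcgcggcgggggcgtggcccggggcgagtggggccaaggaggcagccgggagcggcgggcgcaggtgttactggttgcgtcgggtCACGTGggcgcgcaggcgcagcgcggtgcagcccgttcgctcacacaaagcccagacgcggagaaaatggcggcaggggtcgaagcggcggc
HNRNPA2B1: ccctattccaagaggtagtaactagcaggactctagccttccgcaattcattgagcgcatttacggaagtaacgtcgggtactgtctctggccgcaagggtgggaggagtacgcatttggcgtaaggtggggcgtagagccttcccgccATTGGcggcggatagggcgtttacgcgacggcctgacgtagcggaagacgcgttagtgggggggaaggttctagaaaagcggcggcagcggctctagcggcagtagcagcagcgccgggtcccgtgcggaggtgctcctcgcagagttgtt

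RefSeq promoters were matched for 36 of the 40 genes, and HNRNPA1, HNRNPCL3, SRSF2 and TRA2A were not matched. Since 10 genes had several, this gave 50 promoters, which are not separate genes. They include promoters of HNRNPCL1 and HNRNPCL2, which had 0 reads in every library. Exact letters were searched on both strands of the 50 promoters and of all 35116 promoters of the same length. CCAAT stood in 50% of the members' promoters and in 34.6% of all promoters, and within the members in 22 of 35 promoters of HNRNP genes and 3 of 15 of SRSF and TRA2 genes. CACGTG was found in 8 of 35 HNRNP promoters and in 0 of 15 SRSF and TRA2 promoters, or 16% of the members' against 7.26% of all. The GC box GGGCGG was in 60% of the members' promoters and 45% of all, and the members' promoters had a median GC content of 64.3% and 29 CpG against 58.7% and 14 CpG. TATAAA (12% and 11.5%), CCGGAAGT (6% and 4.14%) and the E2F motif TTTCCCGC (8% and 1.63%) rest on 6, 3 and 4 member promoters, and the NRF1 palindrome was in 0% and 0.755%. CACGTG reads the same on both strands, and matches of different motifs can share bases, as those of GGGCGG and TTTCCCGC may. A match of letters is a description of the window and shows no binding.

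Values were deposited as FPKM, which divides the fragments of a gene by its length and by the size of the library. Multiplied by gene length they gave whole reads, from which a counting error was computed for each value. This takes each read as an independent count, which was not tested. Reads on genes numbered 21616676 to 23086025 per library, of which 176988 to 203793 (0.775% to 0.883%) fell on the 40 genes. The mitochondrial share of the reads was 20.0% with DMSO and 16.6% with melatonin at 24 h, then 9.77% and 11.9% at 48 h. All 8 hepatocyte markers were present (FPKM 41.9 to 3343), and all 5 markers of leukocytes, endothelium and fibroblasts stayed under an FPKM of 1 in each library, with DCN at 0 reads in the 4 libraries. Intervals below are exact 95% intervals from the reads and cover counting error only.

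Of the 40 genes, 34 reached an FPKM of 1 in one or both libraries of a comparison and were compared, 13 SRSF and TRA2 genes and 21 HNRNP genes. SRSF12, a small SR protein that is a paralog of SRSF10, stayed below this minimum with 57, 67, 82 and 93 reads (FPKM 0.683, 0.726, 0.822 and 0.921, DMSO before melatonin and 24 h before 48 h). The readthrough gene HNRNPUL2-BSCL2 had 2, 2, 4 and 4 reads in the same order. HNRNPCL1, HNRNPCL2, HNRNPCL3 and HNRNPCL4, copies of HNRNPC on chromosome 1, had 0 reads in every library, which at their lengths allows an FPKM of up to 0.118 to 0.185 (3 reads).

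The members were among the more abundant transcripts of the cells. Their median FPKM was 30.2 with DMSO and 30.9 with melatonin at 24 h, then 31.2 and 26.7 at 48 h, while the median of protein-coding genes with an FPKM of at least 1 lay between 6.69 and 7.15. HNRNPA1 (chr12:54280193-54287088, plus strand), a core silencer of exons, was the highest member in each library. Its FPKM was 264.7 with DMSO and 266.4 with melatonin at 24 h, then 290.3 and 281.6 at 48 h. In FPKM its highest library thus exceeded its lowest by a factor of 1.10. Under other scalings its log2 difference over time reached 0.64 with DMSO and 0.36 with melatonin. The lowest gene that was compared, HNRNPA1L2, an intronless copy of HNRNPA1, lay between 1.75 and 1.94. Next to HNRNPA1 by mean FPKM came HNRNPK (97.2), HNRNPA2B1 (87.1), HNRNPA3 (86.1) and HNRNPF (81.8). In the order of levels within a library, 15 to 18 of the 33 neighbouring genes had overlapping counting intervals, so that much of this order is not resolved.

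**Figure D1:**
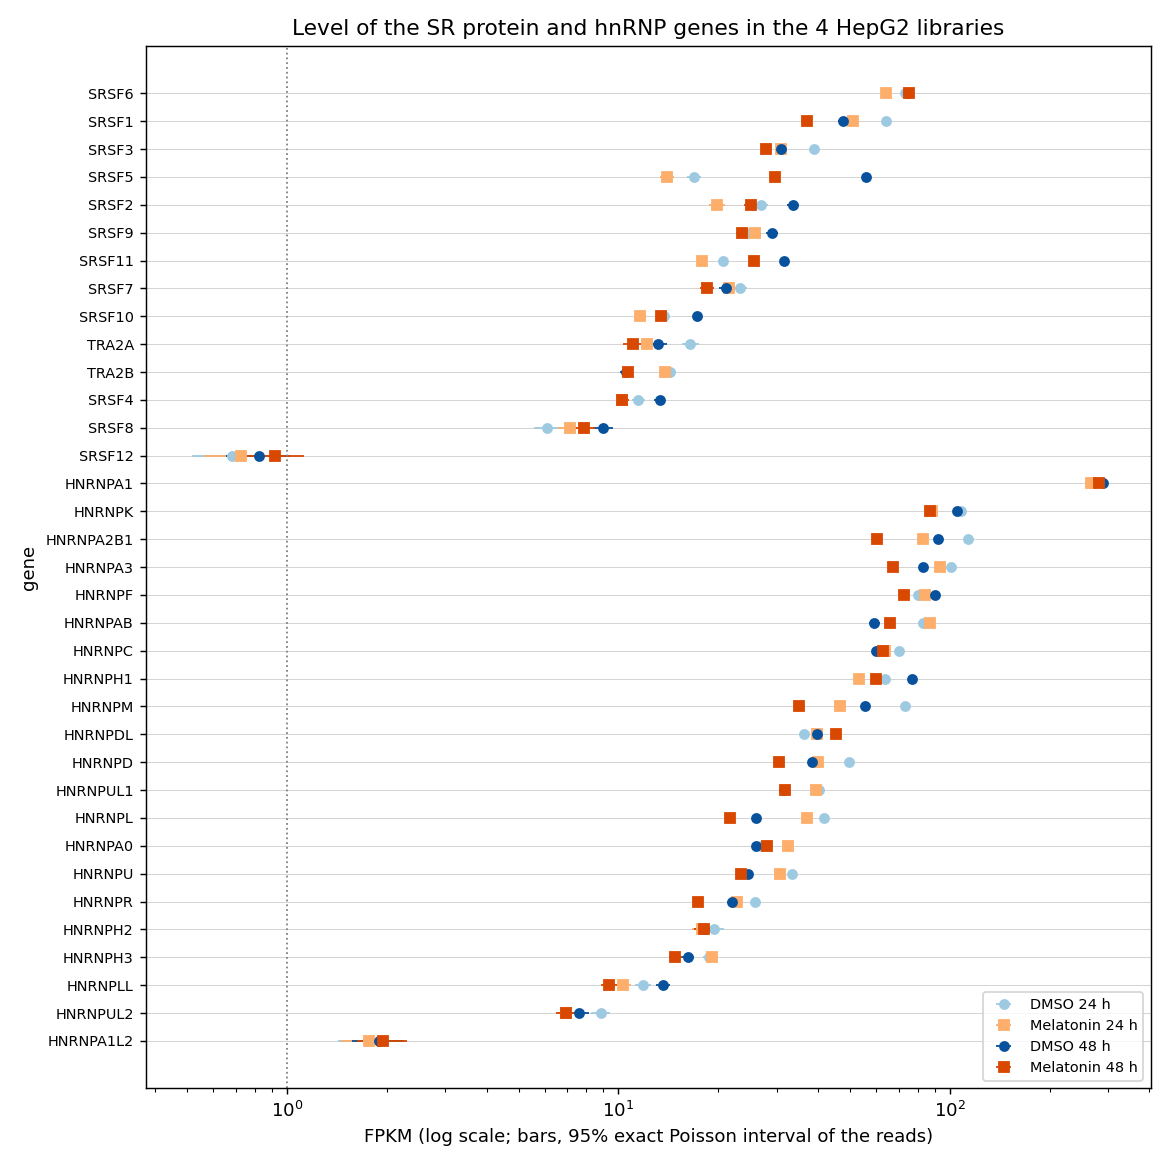
FPKM (log axis) of the 35 SRSF, TRA2 and HNRNP genes with at least 10 reads in some library, one row per gene and one marker per library, with 95% exact Poisson intervals as bars and a dotted line at an FPKM of 1. HNRNPA1 is the highest gene at 264.7 to 290.3, SRSF12 is the only gene left of the dotted line, and SRSF5 has the widest spread, from 14.0 to 56.0.

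Levels per length depend on the length used. For SRSF5 the file gives 5357 bp, the union of the exons, while the canonical transcript in GENCODE 44 has 1496 bp, a factor of 3.58. With canonical lengths the mean FPKM of SRSF5 became 104 in place of 29.1 and its place among the members moved from 17 to 7. HNRNPH1, which binds runs of G, moved from 9 to 2 (268 in place of 63.4), and HNRNPU, a scaffold protein of the nucleus, moved from 19 to 10. Comparisons of a gene between libraries do not depend on this choice.

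SRSF5 (chr14:69726900-69772005, plus strand), an SR protein that binds exonic enhancers, was the one member whose level changed at least 2-fold in a comparison. Its FPKM was 16.9 with DMSO and 14.0 with melatonin at 24 h, then 56.0 and 29.7 at 48 h, from 1659, 1522, 6576 and 3537 reads. Both 48 h libraries thus lay above both 24 h libraries, and the DMSO library was the higher at each time. From 24 h to 48 h SRSF5 rose 3.32-fold with DMSO (interval 3.144 to 3.504) and 2.12-fold with melatonin (2.00 to 2.26), or by 1.67 and 1.03 as log2 of FPKM + 1. With melatonin relative to DMSO its ratio was 0.830 (0.774 to 0.891) at 24 h and 0.531 (0.510 to 0.553) at 48 h, log2 differences of -0.25 and -0.89. The last was the lowest value of any member at 48 h, but did not reach 2-fold.

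In the 4 comparisons a gene was called changed at 2-fold on the log2(FPKM + 1) scale. From 24 h to 48 h with DMSO, SRSF5 was the 1 member of 34 called, against 7.74% of all 13854 genes, and its rise exceeded that of 99.5% of them. With melatonin it was again the 1 member called, against 4.15% of 13489 genes. Between melatonin and DMSO 0 of 34 members were called at 24 h, where 4.35% of 13582 genes were, and 0 of 34 at 48 h, where 5.72% of 13805 genes were. No test of a condition was run. The comparisons over time share the libraries of the comparisons between melatonin and DMSO, so their values are not independent.

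**Figure D2:**
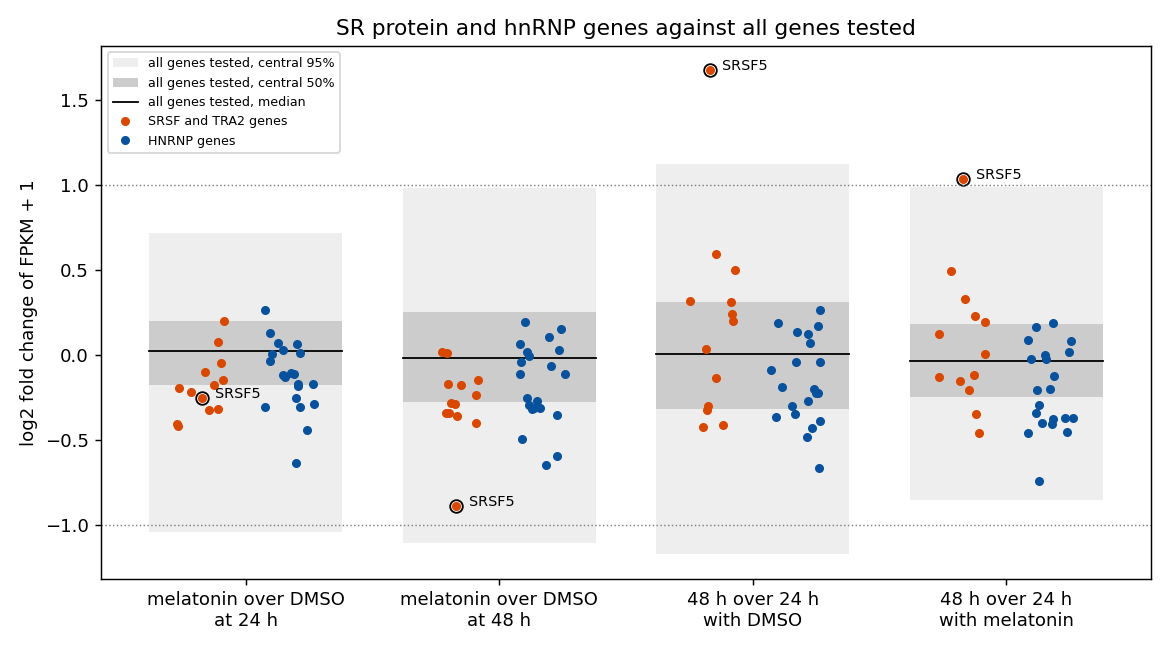
Log2 fold change of FPKM + 1 of the 34 members in each comparison (orange, SRSF and TRA2 genes; blue, HNRNP genes) over the central 95% (light grey) and central 50% (dark grey) of all genes tested, with their median as a line and dotted lines at 2-fold. SRSF5, circled, is the one member past a dotted line, at 1.67 and 1.03 over time, and lies at -0.89 with melatonin at 48 h. Most other members lie under the line of the median with melatonin, by a median of -0.18 at 24 h and -0.22 at 48 h (-0.16 and -0.24 after rescaling to TPM).

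Members were mostly lower with melatonin than with DMSO, by less than 2-fold. At 24 h the reads of 22 members were lower beyond counting error, which held for 22.4% of all genes tested, those of 5 were higher (28.2% of all genes), and for 7 the interval included a ratio of 1. At 48 h 24 members were lower (33.1% of all genes), 4 were higher (29.1%), and 6 intervals included 1. After rescaling to TPM the counts at 24 h turned to 10 members lower and 12 higher of 35, where 10.5% of all genes were lower and 41.6% higher, and at 48 h they were 25 and 2 (30.9% and 21.5%). Abundant genes have narrower intervals, and of the genes with an FPKM of 10 or more 31.8% of 4409 were lower at 24 h and 49.4% of 4406 at 48 h, against 21 and 23 of the 31 members among them. These counts compare libraries and not conditions, and in bulk RNA fewer cells of a kind and less RNA per cell cannot be told apart. The median log2 difference of the members was -0.16 at 24 h, against 0.02 for all genes tested, and -0.24 at 48 h, against -0.02; after rescaling to TPM the members' median at 24 h turned to 0.01, and at 48 h it stayed negative at -0.30. TPM moved the median of all genes as well, by 0.15 at 24 h, so that relative to all genes the members were lower by a similar amount, -0.18 from FPKM and -0.16 from TPM. At 48 h the members' median minus that of all genes was -0.22 from FPKM and -0.24 from TPM.

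The same comparison made separately at both times rests on 4 different libraries. In 19 of 34 members (55.9%) the melatonin library was the lower beyond counting error at 24 h and again at 48 h, as it was in 14.8% of the 12775 genes tested at both times. Most members are abundant and so have narrow intervals, and the share at both times among abundant genes was not computed. HNRNPA0, HNRNPAB and HNRNPDL were higher at both times, 8.82% of the members against 16.8% of all genes. After rescaling to TPM 10 of 35 members were lower at both times (28.6%, against 7.45% of 16054 genes) and 2 were higher (5.71% against 17.7%). Under every scaling, pseudocount and correction tried, 16 members kept a negative log2 difference at both times, and those 3 kept a positive one. The share of all genes that kept a sign in this way was not computed. Some of the 16 came close to 0 at 24 h, as HNRNPL (-0.0009 at its highest) and HNRNPR (-0.005) did. Over the 34 members the differences at 24 h and 48 h had a Pearson r of 0.63 and a Spearman rho of 0.64, with an r of 0.29 and a rho of 0.49 in the 13 SRSF and TRA2 genes and 0.79 and 0.74 in the 21 HNRNP genes. All genes tested at both times had an r of 0.42. Genes of a library share its depth and preparation, and these coefficients are descriptions.

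**Figure D3:**
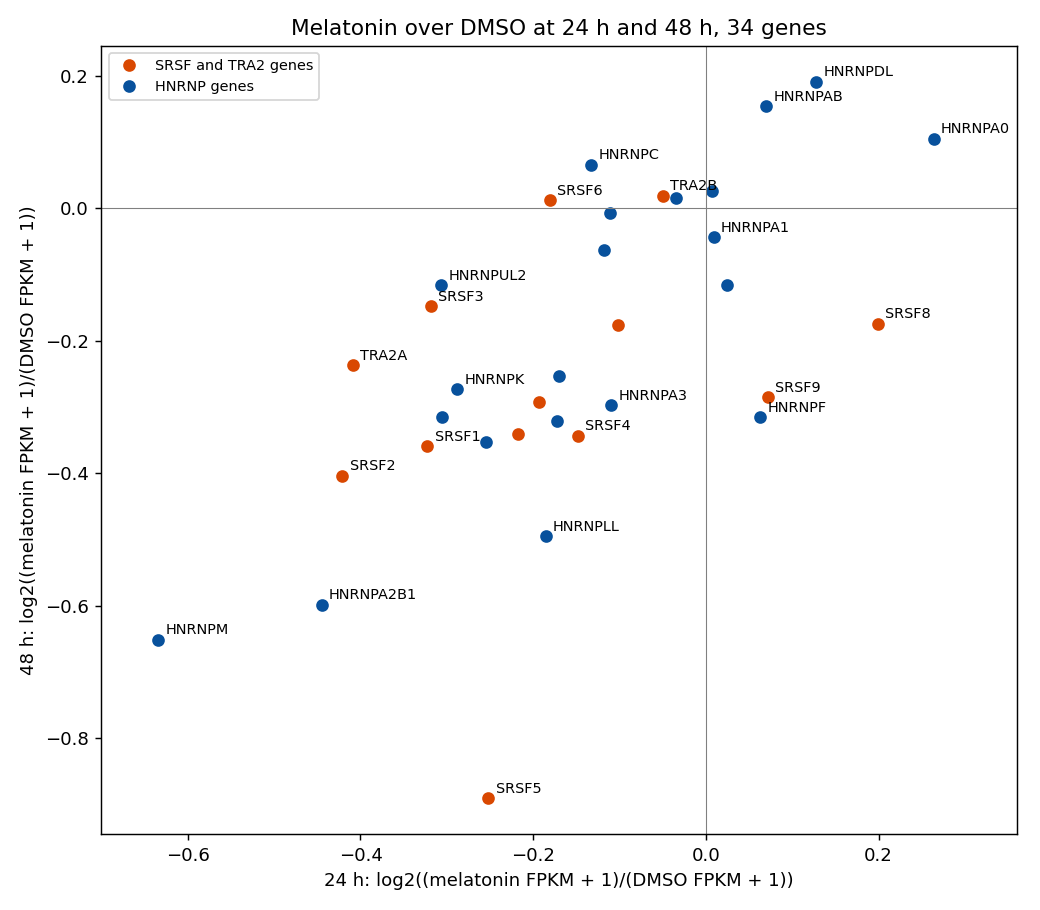
Log2 of the melatonin over the DMSO value (FPKM + 1) at 24 h (horizontal) and 48 h (vertical) for the 34 members, with grey lines at 0. HNRNPM at -0.63 and -0.65 and HNRNPA2B1 at -0.45 and -0.60 lie low at both times, SRSF5 is low at 48 h (-0.89), and HNRNPA0, HNRNPAB and HNRNPDL lie above 0 at both.

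Among the SR proteins, SRSF1, the founding member and a known oncoprotein, was highest in the DMSO library of 24 h and lowest in the melatonin library of 48 h. Its FPKM was 64.2 with DMSO and 51.2 with melatonin at 24 h, then 47.7 and 36.9 at 48 h. Melatonin gave ratios of 0.797 (0.761 to 0.834) and 0.775 (0.737 to 0.815). In FPKM the later DMSO library was below the earlier one by a ratio of 0.742 (0.709 to 0.777). Over the scalings and corrections tried, this log2 difference over time ran from -0.43 to 0.075. SRSF9, its closest relative, had 24.4 and 25.7 at 24 h and 29.1 and 23.7 at 48 h. SRSF1 thus exceeded SRSF9 by a factor of 2.63 in the DMSO library of 24 h and by 1.56 in the melatonin library of 48 h. This order rests on the lengths in the files, since with canonical transcript lengths the factors were 0.505 and 0.300, and SRSF9 was the higher gene. No step for either gene was 2-fold.

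SRSF2 (SC35), an SR protein of the nucleus that activates exons through G- and C-rich enhancers, was lower with melatonin at both times, with an FPKM of 26.9 against 19.9 at 24 h (DMSO first) and 33.6 against 25.2 at 48 h. The ratios were 0.738 (0.683 to 0.796) and 0.749 (0.702 to 0.798), which are close to each other. SRSF2 lies against MFSD11 on the opposite strand, whose reads amounted to 27.5% to 52.3% of its own, and since the strand used in counting is not stated, reads of the overlap could belong to either gene. SRSF8, which arose from SRSF2, had 6.10 and 7.15 at 24 h and 9.01 and 7.87 at 48 h, so melatonin was the higher at 24 h and DMSO at 48 h.

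SRSF3 and SRSF7 are small SR proteins that link splicing to mRNA export and 3′ end formation, and both have the poison exons printed above. The SRSF3 FPKM was 38.9 with DMSO and 31.0 with melatonin at 24 h, then 30.9 and 27.8 at 48 h. In FPKM the 24 h DMSO library stood above the others, and melatonin gave ratios of 0.797 and 0.900. The log2 difference of SRSF3 over time with DMSO ran from -0.34 to 0.17 over the scalings and corrections tried. SRSF7 varied less in FPKM, with 23.2 and 21.6 at 24 h and 21.1 and 18.5 at 48 h. Its melatonin ratios were 0.929 (0.869 to 0.994) and 0.880 (0.823 to 0.940).

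SRSF4, SRSF6 and SRSF5 form the group of larger SR proteins with a pair of RNA recognition motifs. SRSF6 was the highest SR gene by the lengths in the files, though not by canonical lengths, where SRSF5 and SRSF9 stood above it (mean FPKM 104 and 83.6 against 75.9). It had 73.0 and 64.3 at 24 h and 74.8 and 75.5 at 48 h, and in FPKM only the melatonin library of 24 h stood below the others. SRSF4 had 11.5 and 10.3 at 24 h and 13.3 and 10.3 at 48 h. In FPKM its melatonin libraries were thus nearly equal and below both DMSO libraries. These orders across times depend on the scaling. Over the scalings and corrections tried, the log2 difference over time with DMSO reached 0.54 for SRSF6 and 0.70 for SRSF4. With melatonin it reached 0.50 and 0.27. The ratio of SRSF4 to SRSF6 stayed between 0.136 and 0.178, or between 0.499 and 0.652 with canonical lengths.

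SRSF10 and SRSF11 had the same signs as SRSF5 in each comparison, at smaller size. This was not particular to them, since SRSF2 and HNRNPH1 had these signs too. So did SRSF4, though its difference over time with melatonin was only 0.0016. SRSF10, a splicing repressor when dephosphorylated, as after heat shock, had 13.7 and 11.7 at 24 h and 17.3 and 13.5 at 48 h. SRSF11, an SR protein first known as p54, had 20.6 and 17.9 at 24 h and 31.6 and 25.6 at 48 h. For SRSF11 the 48 h libraries lay above the 24 h libraries by ratios of 1.53 with DMSO and 1.43 with melatonin, both beyond counting error. Melatonin lay below DMSO for both genes at both times, with ratios of 0.778 to 0.869.

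TRA2A and TRA2B, homologs of the fly Transformer-2 that bind purine-rich enhancers, differed from each other. TRA2A had an FPKM of 16.5 with DMSO and 12.2 with melatonin at 24 h, then 13.2 and 11.04 at 48 h. TRA2B had 14.3 and 13.8 at 24 h and 10.5 and 10.7 at 48 h. Melatonin thus gave ratios of 0.738 (0.674 to 0.808) and 0.837 (0.764 to 0.917) for TRA2A, while for TRA2B both intervals included 1. The ratio of TRA2A to TRA2B was 1.148 (1.07 to 1.23) and 1.26 (1.17 to 1.35) with DMSO, and 0.880 (0.816 to 0.949) and 1.04 (0.959 to 1.12) with melatonin. With canonical lengths TRA2A was the lower gene in each library, with 0.803 and 0.878 under DMSO and 0.615 and 0.724 under melatonin.

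**Figure D4:**
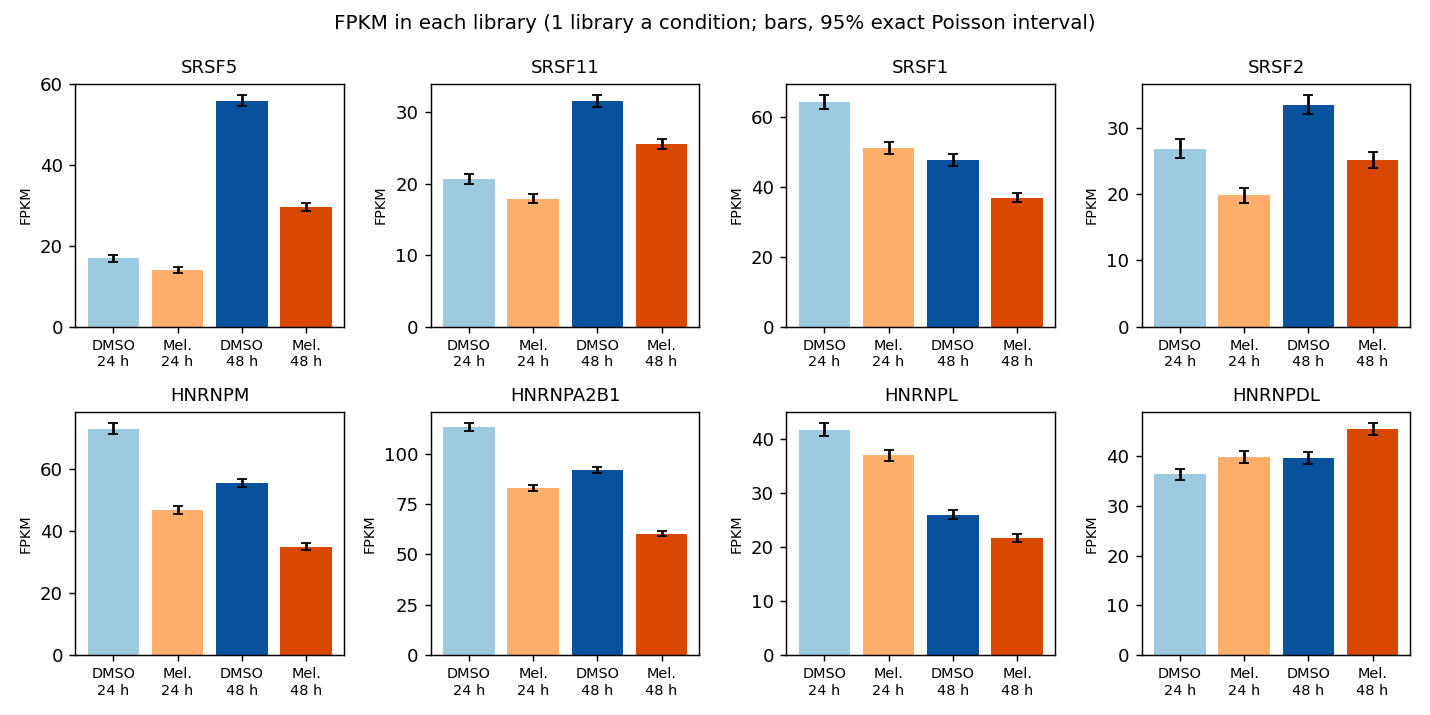
FPKM of 8 members in the 4 libraries, with bars from 0 and 95% exact Poisson intervals as error bars; each condition is 1 library. SRSF5 stands out at 56.0 in the DMSO library of 48 h, HNRNPM and HNRNPA2B1 have lower melatonin bars at both times, HNRNPL has its lower bars at 48 h, and HNRNPDL is highest with melatonin at 48 h.

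Among the hnRNP genes, HNRNPM and HNRNPA2B1 had the lowest values with melatonin. HNRNPM (chr19:8444767-8489114, plus strand), a regulator of splicing in the epithelial to mesenchymal transition, had an FPKM of 73.1 with DMSO and 46.7 with melatonin at 24 h, then 55.5 and 35.0 at 48 h. Both melatonin libraries lay below both DMSO libraries, with ratios of 0.639 (0.617 to 0.662) at 24 h and 0.630 (0.607 to 0.655) at 48 h. At 24 h HNRNPM was the 1 member lower by more than 1.5-fold, against 7.53% of all genes, and at 48 h 3 members were (SRSF5, HNRNPM and HNRNPA2B1), against 10.0%. No member was 1.5-fold higher, against 4.02% of all genes at 24 h and 8.62% at 48 h.

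HNRNPA2B1 (chr7:26189927-26201529, minus strand), which binds UAG motifs and sorts miRNAs, had 113.4 and 83.0 at 24 h and 91.8 and 60.3 at 48 h. Its melatonin libraries were again the lower at both times, with ratios of 0.732 (0.715 to 0.750) and 0.657 (0.640 to 0.674). It lies next to CBX3 on the opposite strand, whose reads amounted to 16.3% to 23.7% of its own. HNRNPA3, a close relative, had 100.7 and 93.3 at 24 h and 83.1 and 67.4 at 48 h, with melatonin ratios of 0.926 (0.902 to 0.951) and 0.812 (0.789 to 0.835).

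The other genes of the A/B group were not lower with melatonin at both times. HNRNPA0, an intronless gene whose protein binds AU-rich elements of inflammatory mRNAs, had 26.9 and 32.5 at 24 h and 26.1 and 28.1 at 48 h. It had the highest melatonin ratio at 24 h, 1.21 (1.16 to 1.26), and 1.08 (1.04 to 1.12) at 48 h. HNRNPAB, with 83.2 and 87.4 at 24 h and 59.2 and 65.9 at 48 h, was slightly higher with melatonin. In FPKM it was lower at 48 h than at 24 h, by a ratio of 0.711 (0.676 to 0.748) with DMSO. Over the scalings and corrections tried, its log2 difference over time with DMSO ran from -0.50 to 0.014. For HNRNPA1 the interval included 1 at 24 h and the ratio was 0.970 (0.955 to 0.985) at 48 h. In the group of 6 the median melatonin difference was 0.01 at 24 h and -0.01 at 48 h. Listed pseudogenes of HNRNPA1 (75 genes) held reads worth 2.47% to 3.03% of its own. Those of HNRNPA3 (16) and HNRNPC (9) held 1.42% to 1.88% and 3.83% to 4.02%. Only pseudogenes named after the member are counted, so these shares do not bound the reads taken by all near-identical copies.

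HNRNPD (AUF1), which binds AU-rich elements and promotes decay of such mRNAs, and its neighbour and paralog HNRNPDL on chromosome 4 lay on opposite sides of the DMSO level in the melatonin libraries. HNRNPD had an FPKM of 49.6 with DMSO and 39.9 with melatonin at 24 h, then 38.3 and 30.6 at 48 h. HNRNPDL had 36.4 and 39.8 at 24 h and 39.7 and 45.4 at 48 h. The ratio of HNRNPD to HNRNPDL was therefore 1.36 (1.31 to 1.42) and 0.965 (0.928 to 1.00) with DMSO at 24 h and 48 h, and 1.00 (0.964 to 1.04) and 0.673 (0.647 to 0.699) with melatonin. These ratios within a library are free of the library size but depend on gene length, and with canonical lengths HNRNPD was the higher gene in each library (2.48 and 1.75 with DMSO, 1.82 and 1.22 with melatonin).

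HNRNPL, which binds CA repeats and is known from the splicing of CD45, was lower at 48 h. Its FPKM was 41.8 with DMSO and 37.0 with melatonin at 24 h, then 26.0 and 21.7 at 48 h, so both 48 h libraries lay below both 24 h libraries. The ratios of 48 h to 24 h were 0.623 (0.597 to 0.649) with DMSO and 0.586 (0.560 to 0.612) with melatonin, the lowest of all members in both comparisons. Its paralog HNRNPLL had 11.8 and 10.3 at 24 h and 13.6 and 9.37 at 48 h, and the ratio of HNRNPL to HNRNPLL went from 3.53 and 3.60 at 24 h to 1.91 and 2.32 at 48 h. With melatonin HNRNPLL was lower than with DMSO at 48 h by a ratio of 0.688 (0.639 to 0.741).

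In the F/H group, which binds G runs, HNRNPH1 had 63.8 and 53.3 at 24 h and 76.6 and 59.8 at 48 h, lower with melatonin at both times. HNRNPH2, a paralog on the X chromosome, stayed between 17.9 and 19.4 in FPKM, and its melatonin intervals included 1 at both times. Under other scalings its log2 difference over time reached 0.40 with DMSO and 0.28 with melatonin. HNRNPF had 80.3 and 83.9 at 24 h and 90.4 and 72.5 at 48 h, and HNRNPH3 had 18.8 and 19.1 at 24 h and 16.2 and 14.9 at 48 h. HNRNPF was therefore slightly higher with melatonin at 24 h, by a ratio of 1.04 (1.01 to 1.09), and lower at 48 h, by 0.801 (0.773 to 0.831).

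The remaining hnRNP genes differed little or in the common direction. HNRNPK, a KH-domain protein that binds C-rich sequence, had 108.3 and 88.5 at 24 h and 105.2 and 86.9 at 48 h. In FPKM this was nearly the same pair of values at both times, with melatonin ratios of 0.817 and 0.826. Its log2 difference over time reached 0.46 with DMSO and 0.25 with melatonin over the scalings and corrections tried. HNRNPC, which binds U tracts and keeps Alu exons out, had 70.1 and 63.8 at 24 h and 59.9 and 62.7 at 48 h. HNRNPR, a relative of SYNCRIP, had 25.9 and 22.8 at 24 h and 22.0 and 17.4 at 48 h. HNRNPU had 33.4 and 30.7 at 24 h and 24.5 and 23.4 at 48 h, in FPKM a split by time more than by melatonin. HNRNPUL1, with 40.4 and 39.4 at 24 h and 31.5 and 31.9 at 48 h, split by time in the same way, and its intervals for melatonin included 1. This split depends on the scaling. Over the scalings and corrections tried, the log2 difference over time with DMSO reached 0.058 for HNRNPU and 0.15 for HNRNPUL1, while with melatonin both stayed below 0. The reads of TGFB1, on the opposite strand, amounted to 39.5% to 66.4% of those of HNRNPUL1. HNRNPUL2 lay between 6.95 and 8.84. In all, 7 members overlap a gene with at least 10% of their reads, and beside those named these are HNRNPAB (PHYKPL, 18.6% to 39.0%), SRSF9 (GATC, 21.3% to 26.2%), HNRNPH3 (RUFY2, 12.2% to 19.9%) and the readthrough gene.

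Over time the medians of both families lay apart under DMSO. The median log2 difference of 48 h over 24 h was 0.20 in the 13 SRSF and TRA2 genes and -0.20 in the 21 HNRNP genes, against 0.00 for all genes tested. Rescaling to TPM moved the median of all genes by 0.46, left the SRSF and TRA2 median positive at 0.62, and turned that of the HNRNP genes to 0.28. In both scalings the SRSF and TRA2 median stood above the HNRNP median. Without SRSF5 the SRSF and TRA2 median was 0.12. With DMSO 12 members were higher at 48 h beyond counting error (32.5% of all genes) and 18 were lower (32.1%). With melatonin 8 were higher (22.4%) and 19 were lower (32.8%). After rescaling to TPM these counts ran the other way, with 32 members of 35 higher and 1 lower under DMSO (56.5% and 8.15% of all genes) and 21 higher and 10 lower under melatonin (43.3% and 9.58%). The medians with melatonin were 0.00 in the SRSF and TRA2 genes and -0.21 in the HNRNP genes, which became 0.33 and 0.06 after rescaling to TPM, where the median of all genes moved by 0.27. Beside SRSF5, the highest members over time with DMSO were SRSF11 (0.59), SRSF8 (0.50), SRSF10 (0.32) and SRSF2 (0.31), and the lowest were HNRNPL (-0.66), HNRNPAB (-0.48), HNRNPU (-0.43), SRSF1 (-0.42) and TRA2B (-0.42). With melatonin they were SRSF11 (0.49), SRSF2 (0.33), SRSF6 (0.23) and SRSF10 (0.19), and HNRNPL (-0.75), HNRNPA3 (-0.46), SRSF1 (-0.46), HNRNPA2B1 (-0.45) and HNRNPM (-0.41). HNRNPL was the only member below 0 over time with DMSO in every scaling, pseudocount and correction. The mitochondrial share of reads, given above, moved with time too. With mitochondrial genes left out of the library size the SRSF and TRA2 and the HNRNP medians were 0.19 and -0.22 under DMSO and 0.11 and -0.16 under melatonin.

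The balance of the families can be set within a library. The SRSF and TRA2 genes summed to an FPKM of 351 with DMSO and 301 with melatonin at 24 h, then to 389 and 317 at 48 h. The HNRNP genes summed to 1273 and 1165, and to 1178 and 1042. The ratio of the sums was 0.276 with DMSO and 0.259 with melatonin at 24 h, then 0.330 and 0.304 at 48 h. SRSF5 supplied 4.65% to 14.4% of the first sum, and without it the ratio was 0.263, 0.247, 0.283 and 0.276 in the same order. HNRNPA1 alone made up 20.8% to 27.0% of the HNRNP sum.

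For SRSF1 and HNRNPA1, the antagonists at 5′ splice sites, the 4 libraries gave 4 different ratios. The ratio of SRSF1 to HNRNPA1 at 24 h was 0.243 (0.235 to 0.251) in the DMSO library and 0.192 (0.185 to 0.199) in the melatonin library. At 48 h it was 0.164 (0.159 to 0.170) and 0.131 (0.126 to 0.136). It was lower with melatonin at both times and lower at the later time under both treatments, and no intervals overlapped. With canonical lengths the ratios were lower by a common factor, at 0.111 and 0.0882 for 24 h and 0.0755 and 0.0603 for 48 h, in the same order of libraries. The ratio of HNRNPA1 to HNRNPA2B1 went from 2.34 with DMSO to 3.21 with melatonin at 24 h, and from 3.16 to 4.67 at 48 h. Further pairs ranged over 1.44 to 1.68 for SRSF3 over SRSF7, 2.98 to 4.22 for HNRNPH1 over HNRNPH2, 4.14 to 5.66 for HNRNPUL1 over HNRNPUL2, 2.78 to 4.41 for SRSF2 over SRSF8 and 14.6 to 21.0 for SRSF10 over SRSF12. All of these hold for the lengths in the files, and the largest shift with canonical lengths was that of HNRNPH1 over HNRNPH2, to 13.0 to 18.4.

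**Figure D5:**
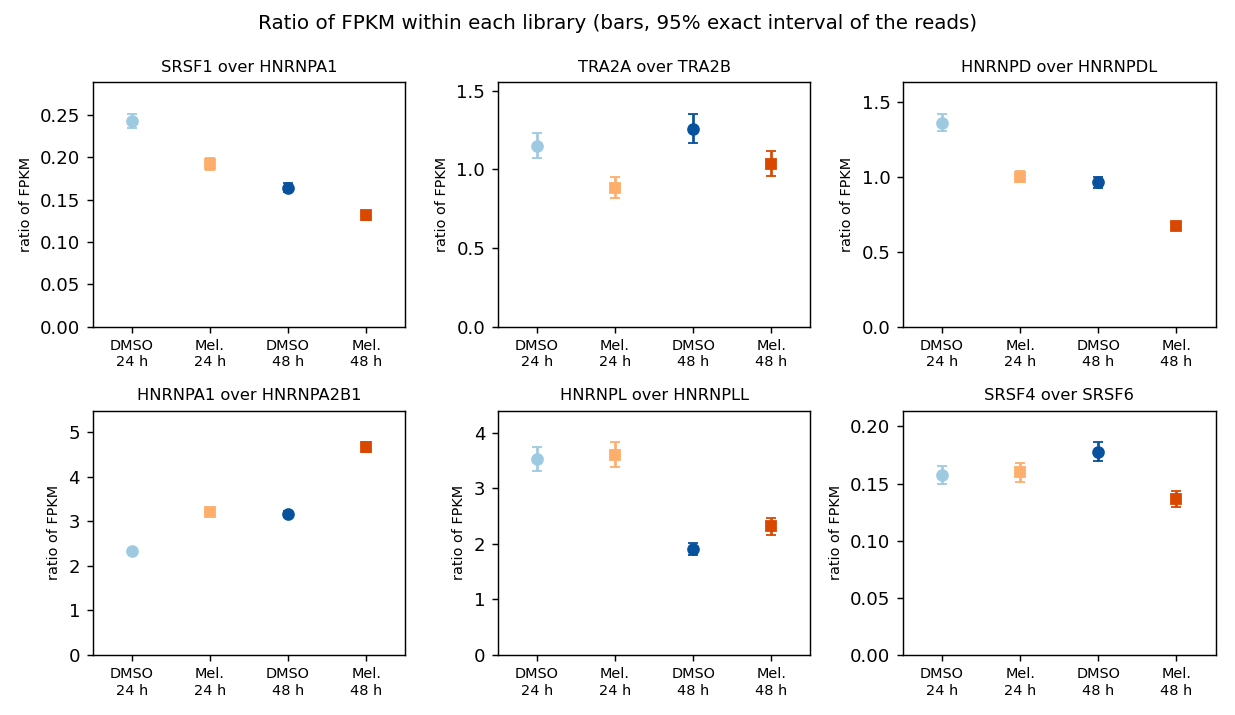
Ratio of FPKM of 6 gene pairs within each library (vertical axes from 0; bars, 95% exact intervals of the reads). SRSF1 over HNRNPA1 is lower in each melatonin library than in the DMSO library of the same time (0.192 against 0.243, and 0.131 against 0.164), HNRNPD over HNRNPDL goes from 1.36 to 0.673, and SRSF4 over SRSF6 stays between 0.136 and 0.178.

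Related RNA-binding proteins were counted by the same rule. Of 17 hnRNP proteins known under other names (18 entries, with 2 for MATR3), 0 were called in any of the 4 comparisons (all genes, 4.15% to 7.74%), and their medians were -0.08 and -0.22 for melatonin over DMSO at 24 h and 48 h. SFPQ, a paraspeckle protein, had an FPKM of 51.5 with DMSO and 35.8 with melatonin at 24 h, while CIRBP, the cold-inducible RNA-binding protein, had 13.5 and 22.2, which are the lowest and highest log2 differences of that list (-0.51 and 0.67). At 48 h EWSR1 had 36.5 with DMSO and 19.4 with melatonin (-0.88), and CIRBP 20.7 and 31.8 (0.59). Of 16 SR-related proteins, 2 rose over time with DMSO, where 7.74% of all genes were called, LUC7L3 from 15.02 to 36.8 (1.24) and RBM39 from 38.5 to 80.9 (1.05), which are associated with U1 and U2AF, and 0 were called in the other 3 comparisons. With melatonin at 48 h LUC7L3 had 20.4 against 36.8 with DMSO (-0.82), the lowest of the list. Of 47 core spliceosome genes 0 were called in any comparison, with medians of -0.05 and -0.14 for melatonin at 24 h and 48 h and -0.06 and -0.18 over time with DMSO and with melatonin. The helicase DDX46 was the lowest of that list with melatonin, with 11.7 against 7.29 at 24 h and 14.4 against 8.40 at 48 h (DMSO first).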

How the data were processed

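The authors exposed HepG2 cells to melatonin (1 mM) or to the control DMSO, harvested them after 24 h or 48 h, and sequenced polyadenylated RNA of 1 library per condition. The authors deposited FPKM per Ensembl gene, beside the gene length, without counts or confidence limits. The methods name paired-end reads, hg38, MapSplice 2.0.1.6 and Cufflinks, and the submitters' processing notes list Bowtie2 2.0.6, TopHat2 2.0.9, Cufflinks 2.1.1 and Cuffdiff 2.1.1 without roles. The strand used in counting is not given in the sources used here.

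Reads were recovered as FPKM times length over the step of each library, and all were whole within 0.05. The library sizes that the FPKM imply were 18357838, 20283332, 21930408 and 22205042 (DMSO and then melatonin at 24 h, and the same at 48 h), which are below the reads on genes, and how they were set is not stated. At 3 reads a gene of 1 kb had an FPKM of 0.135 to 0.163.

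Differences were log2 of the ratio of FPKM + 1, which understates the change of low genes, for genes that reached an FPKM of 1 in at least one of the libraries compared, and a 2-fold difference was called. Ratios carry exact (Clopper-Pearson) 95% intervals of the reads. With 1 library per condition there was no test of a condition. All 40 members were accounted for. Values in each library were given for members called, the 5 highest and 5 lowest in each comparison, the 5 most abundant and fixed paralog pairs, and of the related lists for those called or else the highest or lowest. Other members and the 8 genes drawn as bars were added after their values were seen. The members and lists were chosen with earlier results of these data known. Alternatives were a pseudocount of 0.1, no filter or a filter at an FPKM of 5, calls at 1.5-fold, TPM, centring on the median, other library sizes, protein-coding genes alone and a correction for GC content and length. Canonical lengths, used in alternatives chosen after seeing the data, and exons came from GENCODE 44, and promoters from RefSeq. Gene coordinates follow the files. The planned lengths and dipeptide counts of the proteins were not computed, and the splicing events were not analysed here. Scripts were tested on simulated data. Python 3.11.15, numpy 2.4.6, pandas 2.3.3, scipy 1.17.1 and matplotlib 3.10.9 were used.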

Additional observations from a re-analysis of the deposited data

Results flagged for a closer look

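For 3 members the melatonin library was higher than the DMSO library at one time and lower at the other, each beyond counting error. With 1 library per condition the difference between the times was not tested. HNRNPF had a log2 difference of 0.06 at 24 h and -0.32 at 48 h, so the value at 48 h minus that at 24 h was -0.38. SRSF8 had 0.20 and -0.17, a change of -0.37. HNRNPC had -0.13 and 0.07, a change of 0.20. The signs of HNRNPF and SRSF8 stayed opposite under the 6 other pseudocounts, scalings and corrections examined, and those of HNRNPC under 5 of the 6, since rescaling to TPM gave 0.04 and 0.01. Opposite directions beyond counting error were found in 3 of 34 members, while of all 12775 genes tested at both times 2.37% were lower and then higher, and 4.85% higher and then lower.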

How the results depend on the processing

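No paired analysis was possible because the groups of each comparison share 1 replicate number, and no replicate could be left out. A fit of melatonin over both times with time as a block, which leaves 1 residual degree of freedom, was not run. A 1.5-fold threshold called 1 and 3 members for melatonin at 24 h and 48 h, and 3 and 2 over time with DMSO and with melatonin, where 11.2% of all genes were higher and 12.6% lower with DMSO and 6.76% and 6.05% with melatonin. Rescaling to TPM called 3 members over time with DMSO (SRSF5, SRSF11 at 1.10 and SRSF8 at 1.01), against 20.3% of all genes. The median of the members at 24 h became 0.012 under TPM. At 48 h it was -0.16 without the filter on low values and -0.17 with mitochondrial genes left out of the library size. Over time with DMSO it was -0.021 without the filter, 0.40 under TPM and 0.041 when libraries were scaled to their summed reads, and with melatonin -0.026, 0.13 and -0.0055. Canonical transcript lengths were chosen after seeing the data. With them the SRSF and TRA2 sum over the HNRNP sum was 0.256 with DMSO and 0.253 with melatonin at 24 h. At 48 h it was 0.355 and 0.315. With the same lengths SRSF1 over HNRNPA1 was 0.111, 0.0882, 0.0755 and 0.0603, in the same order of libraries, and TRA2A over TRA2B 0.803, 0.615, 0.878 and 0.724. With the lengths in the files and without SRSF5 the ratio of the sums was 0.263, 0.247, 0.283 and 0.276, again in this order. Of 816 single values of members under alternatives, 593 moved by less than their counting interval or stayed called at 2-fold. Another 221 moved by more, and 2 newly reached 2-fold. Changes of sign were labelled only for called values, of which 0 changed sign. Of the 34 members tested, 15 kept the same sign in every setting over time with DMSO, and 24 did with melatonin. For melatonin over DMSO, 23 did at 24 h and 27 at 48 h. Of all genes called, 32.7% were higher with melatonin at 24 h from FPKM, 45.8% under TPM and 47.9% after the correction for GC content and length. Over time with DMSO 45.2% were higher from FPKM, 80.7% under TPM and 61.8% when scaled to the summed reads, and with melatonin 58.9%, 72.9% and 68.1%. The depth resolves ratios near 1.05 in the abundant members, as for HNRNPC at 48 h (1.02 to 1.08), and not in HNRNPA1L2 (97 to 130 reads).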
